A study of Trichoderma reesei QM6a with 6 samples.

Results

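Citrate links the mitochondrial citric acid cycle to the acetyl-CoA pool of the cytosol. Citrate synthase joins acetyl-CoA and oxaloacetate to citrate in the mitochondrion, and isocitrate dehydrogenase carries the carbon further along the cycle by oxidising isocitrate to 2-oxoglutarate. Citrate that leaves the mitochondrion is cleaved by ATP citrate lyase into oxaloacetate and acetyl-CoA, the building block of fatty acids and sterols. In filamentous fungi such as Trichoderma reesei the lyase has a pair of subunits encoded by separate genes, whereas in animals it is a single polypeptide.

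The transcripts of 4 of these genes were followed here among 9113 genes of the series table: cit1 (TRIREDRAFT_122296, citrate synthase), idh2 (TRIREDRAFT_74983, isocitrate dehydrogenase), and acl1 (TRIREDRAFT_121824) and acl2 (TRIREDRAFT_121826) for the lyase subunits. They were taken by locus tag and were chosen by their function and their strain differences in these same libraries. Their levels in the 2 strains are therefore given as a description, with no test.

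The groups were Δace1, a deletion of ace1 in the strain QM6a, and QM6a itself as the wild type, with 3 libraries each. The Ace1 protein binds DNA through zinc fingers and is best known for repressing cellulase and xylanase genes. Both strains were pregrown in flasks (28 °C, 250 rpm) with 1% D-glucose over 24 h. The washed mycelium was kept for 3 h on 1% D-mannitol before poly(A) RNA was sequenced. The labels do not say whether replicates were separate cultures or how many deletion clones were used, so spreads and p-values cover these libraries only.

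Totals ran from 5482469 to 6424048 estimated counts in Δace1 and from 6072076 to 6938168 in QM6a. The ace1 transcript had at most 14 counts in a Δace1 library and at least 7765 in a QM6a library, which fits the labels. TRIREDRAFT_82208 (pks4, a gene of conidial pigment) had at most 12 counts in any library. Replicate 3 of Δace1 stood apart from the other two: the chi-square per degree of freedom over genes was 28.5 and 21.3 against replicates 1 and 2, and 4.19 between those. In QM6a replicate 1 stood apart to a lesser degree, with 10.3 and 12.5 against replicates 2 and 3, and 2.96 between those. The acl1 to acl2 ratio, the log2 changes of the 4 citrate genes and the numbers of called genes are also given with 1 library left out. The other ratios and the changes of other genes are given with all 6 libraries only.

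The citrate synthase gene cit1 had the largest strain difference of the 4. Its level per length, as TPM (a transcript abundance corrected for length with the same total in every library), was 158, 176 and 173 in Δace1, against 511, 593 and 578 in QM6a. All Δace1 libraries lay far below all QM6a libraries, and the mean was 169 ± 9.51 TPM in Δace1 and 560 ± 43.7 TPM in QM6a (SD, n = 3 each). The Δace1 mean was 0.301 times that of QM6a on this scale. By mean level cit1 stood 966th among the 9113 genes in Δace1 and 247th in QM6a. Measured RNA came from whole mycelium, so fewer cells expressing a gene and less RNA per cell cannot be told apart.

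The isocitrate dehydrogenase gene idh2 was the least abundant of the group in both strains. It had 117, 125 and 124 TPM in Δace1 and 219.9, 244 and 244 TPM in QM6a, again without overlap. Replicate 1 of QM6a had the lowest value of its strain for this gene, for cit1 and for acl1. For acl2 it was also lowest, but narrowly (469.6 against 473 and 476 TPM). On the CPM scale used further below it was instead the highest for acl2 (1090 against 1041 and 1052). The means were 122 ± 4.14 TPM in Δace1 and 236 ± 13.9 TPM in QM6a (SD, n = 3 each), and the Δace1 mean was 0.517 times the other. Its place by mean level was 1328th in Δace1 and 501st in QM6a.

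The lyase genes lay close to each other in both strains. The acl1 level was 304, 299 and 257 TPM in Δace1 and 414, 491 and 464 TPM in QM6a. The acl2 level was 261, 262 and 283 TPM in Δace1 and 469.6, 473 and 476 TPM in QM6a. For each gene the strains did not overlap. Replicate 3 of Δace1 had the lowest acl1 value and the highest acl2 value of its strain. The means for acl1 were 287 ± 26.1 TPM in Δace1 and 456 ± 38.6 TPM in QM6a, and those for acl2 were 268 ± 12.4 TPM in Δace1 and 473 ± 3.25 TPM in QM6a (SD, n = 3 each). The Δace1 mean was 0.628 times the QM6a mean for acl1 and 0.568 times for acl2.

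**Figure D1:**
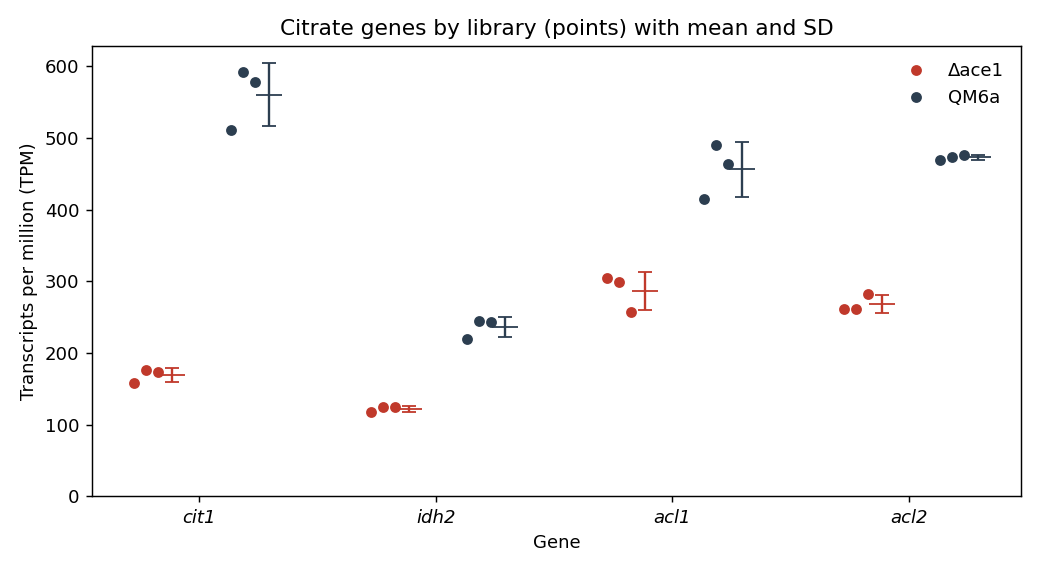
TPM of cit1, idh2, acl1 and acl2 in each library (points), with the mean and SD of each strain beside the points, Δace1 in red and QM6a in dark blue. No gene has overlapping strains, and cit1 is the highest of the 4 in QM6a (511 to 593) but lies below both lyase genes in Δace1 (158 to 176).

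The order of the 4 levels was not the same in the 2 strains. In Δace1 acl1 and acl2 came first, with ranges of 257 to 304 and 261 to 283 TPM that overlapped, then cit1, then idh2. In QM6a cit1 came first, above acl2 and acl1, whose ranges overlapped (469.6 to 476 and 414 to 491 TPM), and idh2 was last. So the lyase genes could not be ranked against each other in either strain, while cit1 and idh2 were apart from their neighbours in both. Together the 4 genes took 0.141% to 0.145% of all counts in Δace1 and 0.322% to 0.358% in QM6a.

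A ratio of 2 genes within a library does not depend on how the libraries are scaled to each other. The ratio of acl1 to acl2, in TPM, was 1.17, 1.141 and 0.907 in Δace1 and 0.883, 1.04 and 0.974 in QM6a. The subunit transcripts were thus near equal per length in all 6 libraries, and the strains overlapped. The mean ratio was 1.07 ± 0.143 in Δace1 and 0.964 ± 0.0773 in QM6a (SD, n = 3 each). The overlap rests on replicate 3 of Δace1: without it the Δace1 mean was 1.15, and both remaining libraries lay above the QM6a range. Replicate 1 of QM6a had the lowest ratio of its strain, and without it the QM6a mean was 1.01 and the strains still overlapped.

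Counting error was smaller than some of these differences between replicates and not smaller than others. Of the reads of both lyase genes, acl1 took 61.3% (95% exact Clopper-Pearson interval 60.1% to 62.4%), 60.7% (59.5% to 61.98%) and 55.2% (53.8% to 56.5%) in replicates 1, 2 and 3 of Δace1. In QM6a it took 54.5% (53.6% to 55.3%), 58.4% (57.6% to 59.3%) and 56.9% (56.1% to 57.8%). The intervals of replicate 3 of Δace1 and of replicates 1 and 2 of that strain do not meet, and neither do those of replicate 1 of QM6a and of replicates 2 and 3 of that strain. The intervals of replicates 1 and 2 of Δace1 overlap, as do those of replicates 2 and 3 of QM6a. These shares are not corrected for length, since the coding length is 1962 bases for acl1 and 1464 for acl2, and the intervals cover counting error only.

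The balance of citrate synthase to lyase differed more. The cit1 to acl1 ratio was 0.5195, 0.588 and 0.674 in Δace1 and 1.23, 1.21 and 1.25 in QM6a. The cit1 to acl2 ratio was 0.606, 0.672 and 0.611 in Δace1 and 1.09, 1.25 and 1.21 in QM6a. In each Δace1 library cit1 was therefore the scarcer transcript of either pair, and in each QM6a library the more abundant. Against the mean of both lyase genes the ratio averaged 0.609 ± 0.0437 in Δace1 and 1.21 ± 0.0429 in QM6a (SD, n = 3 each).

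Within the citric acid cycle, cit1 also stood lower relative to idh2 in the deletion strain. The cit1 to idh2 ratio was 1.35, 1.41 and 1.396 in Δace1 and 2.32, 2.43 and 2.37 in QM6a, without overlap. The means were 1.38 ± 0.0316 in Δace1 and 2.37 ± 0.0520 in QM6a (SD, n = 3 each). The idh2 to acl2 ratio averaged 0.455 ± 0.0200 in Δace1 and 0.499 ± 0.0264 in QM6a (SD, n = 3 each), and there the strains overlapped. Relative to acl1 the ratio of idh2 was 0.385 to 0.483 in Δace1 and 0.498 to 0.530 in QM6a.

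**Figure D2:**
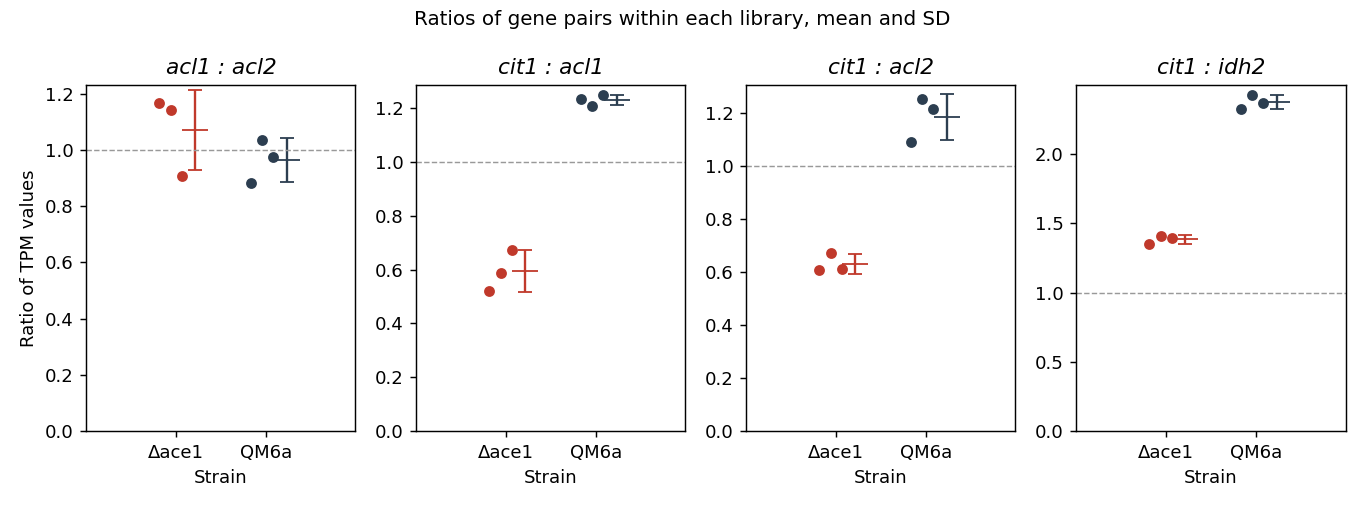
Ratio of the TPM values of 2 genes within each library (points), with the mean and SD of each strain, Δace1 left and QM6a right. The dashed line marks equal levels. The acl1 to acl2 ratios straddle it in both strains (0.907 to 1.17 in Δace1, 0.883 to 1.04 in QM6a), whereas cit1 to acl1 is 0.5195 to 0.674 in Δace1 and 1.21 to 1.25 in QM6a.

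Among replicates of one strain the lyase genes deviated in opposite directions, in QM6a depending on the scale. On log2 CPM (the counts of a library relative to its size, with sizes adjusted by TMM), replicate 3 of Δace1 lay 0.12 above its strain mean for acl2 and had a deviation of -0.11 for acl1. On this scale the sign was opposite in 6 of 6 libraries, although deviations within a strain sum to 0 and are not independent. In TPM it was opposite in Δace1 only. There both genes were below their QM6a means in replicate 1 and above them in replicates 2 and 3, narrowly for acl2 (469.6 to 476 TPM). On log2 CPM both deviations were close to 0 in replicate 3 of QM6a (0.0062 for acl1 and -0.012 for acl2), so their signs there carry little. Of the 4668 other genes with a mean of at least 5 on that scale, 5.96% had the sign opposite to acl1 in every library. For cit1 and idh2 the sign was the same in 6 of 6 libraries, a match to cit1 that 5.16% of other genes also had.

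Genes of similar length had median deviations near 0. The 513 genes within 10% of the coding length of acl1 had median deviations between -0.0023 and 0.0027 across the 6 libraries. The 630 genes within 10% of that of acl2 had medians between -0.0094 and 0.012. The estimated counts of the 4 genes were whole numbers in every library.

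**Figure D3:**
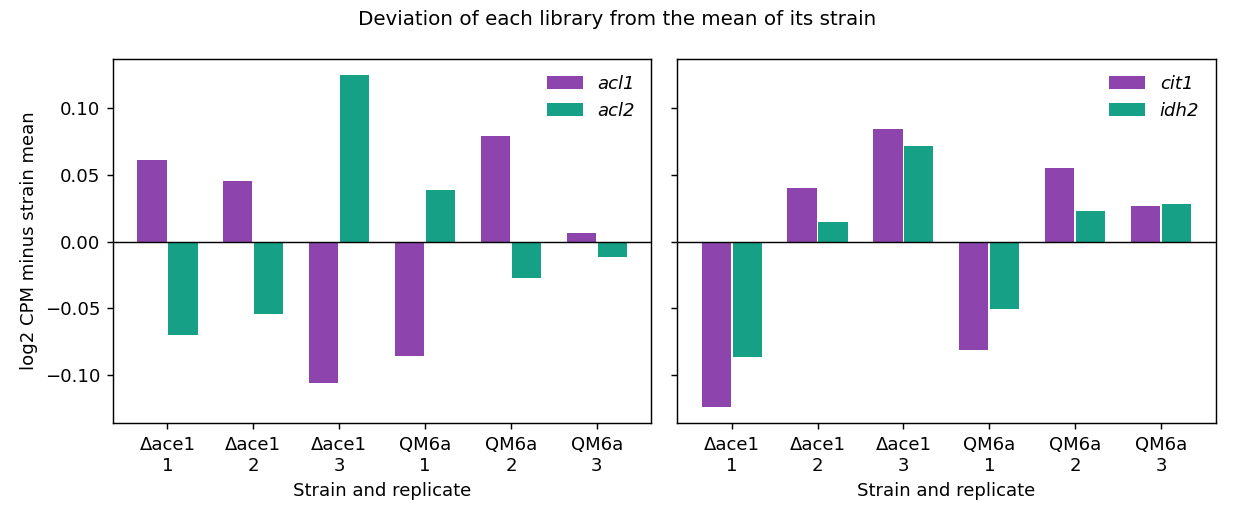
Deviation of each library from the mean of its strain in log2 CPM, for acl1 and acl2 (left) and for cit1 and idh2 (right), with Δace1 libraries before QM6a libraries. The lyase genes point in opposite directions in every library, most in replicate 3 of Δace1 (-0.11 for acl1, 0.12 for acl2), and cit1 and idh2 point the same way. In replicate 3 of QM6a the lyase deviations are close to 0 (0.0062 for acl1, -0.012 for acl2). In TPM, not drawn here, the lyase genes of QM6a deviate the same way in each library.

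The size of the strain difference depended on the scaling. Scaling by 1 factor per library moves all log2 changes nearly alike, so the spacing among the genes was nearly fixed in advance. With TMM, which takes most genes as level, the mean CPM of cit1 was 215 ± 16.04 in Δace1 and 1215 ± 59.8 in QM6a (SD, n = 3 each), a ratio of 0.177 where TPM gave 0.301. The log2 changes, Δace1 over QM6a, were -2.50 for cit1, -1.72 for idh2, -1.44 for acl1 and -1.59 for acl2, with standard errors of 0.08, 0.07, 0.08 and 0.07 (edgeR). On log2(TPM + 1) they were -1.72, -0.94, -0.67 and -0.82, and with library totals -2.001, -1.22, -0.94 and -1.09. The median over genes of the difference from the TMM value was 0.75 on log2(TPM + 1) and 0.50 with library totals. After that shift is taken off, each of the 4 values lay within 0.025 of its TMM value.

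**Figure D4:**
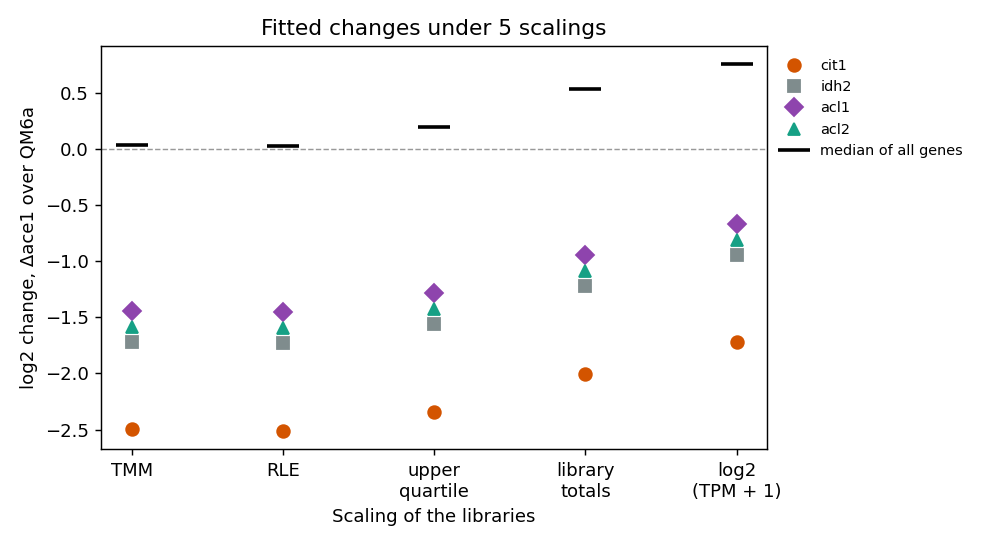
Fitted log2 change (Δace1 over QM6a) of cit1, idh2, acl1 and acl2 and the median of all genes (black bars) under 5 scalings of the libraries. The 4 genes and the median move up together, from -2.50 for cit1 and 0.03 for the median with TMM to -1.72 and 0.75 on log2(TPM + 1), and cit1 stays lowest. Such a joint shift follows from the scaling itself.

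These changes sit in a series where most genes differed. In edgeR's quasi-likelihood test 80.8% of 7769 tested genes were called at a Benjamini-Hochberg adjusted p below 0.05. Of the tested genes 39.5% were called lower in Δace1, and the 4 citrate genes were all among them, which the choice of genes had already fixed. In the same way 17.5% of tested genes had all Δace1 libraries below all QM6a libraries in TPM, and 40.2% in TMM-scaled CPM. The share of called genes that were higher in Δace1 was 51.0% with TMM, against 80.5% on log2(TPM + 1) and 71.8% when libraries were scaled by their totals. In the distribution of all log2 changes cit1 lay at the 3.63rd percentile, idh2 at the 8.46th, acl2 at the 9.602nd and acl1 at the 11.2th.

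Other enzymes of central carbon metabolism were taken from a list of 78 symbols, of which 10 were matched in the reference table. The list was made with earlier results of these data known. Tallies and adjusted p-values of its genes, here and below, therefore describe these data and are not independent support. Of 9 that could be tested, 4 rose and 4 fell, and 1 did not pass the test, against 41.2% higher and 39.5% lower among all tested genes. With library totals 5 rose and 3 fell, against 60.6% higher and 23.8% lower among all tested genes. Their median log2 change was -0.12, and that of all genes was 0.03. The tenth, cat1, whose product the reference does not give, had 0 counts in every library, where the floor of 3 counts is 0.432 to 0.547 CPM.

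On the acetyl-CoA side, acs1 (acetyl-CoA synthetase, which makes acetyl-CoA from acetate without citrate) rose. It had 461, 459 and 375 TPM in Δace1 and 207, 214 and 214 TPM in QM6a, with a log2 change of 0.25 with TMM (SE 0.07, edgeR adjusted p = 0.00432). The size depended on the scaling, at 0.75 with library totals and 1.02 on log2(TPM + 1), both called. The medians of all genes on those scales were 0.53 and 0.75. With TMM acs1 lay at percentile 58.1 of all log2 changes, near the middle. All Δace1 libraries lay above all QM6a libraries. The acs1 to acl1 ratio was 1.504 ± 0.0371 in Δace1 and 0.466 ± 0.0327 in QM6a (SD, n = 3 each), so acs1 was the more abundant of that pair in Δace1 and the scarcer in QM6a. The glyoxylate bypass, which starts from isocitrate as the step of idh2 does, rose (edgeR adjusted p = 1.91e-18 for acu3 and 2.06e-17 for acu9). Its isocitrate lyase (acu3) averaged 1671 ± 104 TPM in Δace1 and 4.23 ± 0.416 TPM in QM6a, and malate synthase (acu9) 1921 ± 160.1 TPM in Δace1 and 7.16 ± 1.07 TPM in QM6a (SD, n = 3 each).

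The transcripts of acu3 and idh2, which both act on isocitrate, thus had reversed proportions. Other isocitrate dehydrogenase genes were not examined. In Δace1 acu3 was far above idh2 (1671 against 122 TPM on average), and in QM6a it was far below it (4.23 against 236 TPM).

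The gene pyc1 (pyruvate carboxylase, a source of the oxaloacetate that citrate synthase uses) did not pass the test with TMM. It had 309, 308 and 276 TPM in Δace1 and 178.0, 193 and 198 TPM in QM6a, with all Δace1 libraries above all QM6a libraries. In TMM-scaled CPM the separation ran the other way, at 946 to 1007 in Δace1 and 1042 to 1102 in QM6a. Its log2 change was -0.12 with TMM (SE 0.07, edgeR adjusted p = 0.116), but 0.38 with library totals (adjusted p = 0.000145) and 0.65 on log2(TPM + 1) (limma, adjusted p = 1.97e-05). The direction for pyc1 therefore turned with the scaling, unlike that of the 4 citrate genes.

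Of the listed genes of glycolysis 4 of 4 tested fell with TMM, where 39.5% of all tested genes did. With library totals 3 of the 4 fell, against 23.8% of all tested genes, and pgk1 was not called there or on log2(TPM + 1). Hexokinase (hxk1), the entry step for glucose, averaged 217 ± 6.97 TPM in Δace1 and 507 ± 55.9 TPM in QM6a (SD, n = 3 each), with a log2 change of -1.99 (SE 0.08, edgeR adjusted p = 2.34e-13). The hxk1 change was -1.49 with library totals and -1.21 on log2(TPM + 1). Enolase (eno1) was at -1.499 with TMM, -0.73 on log2(TPM + 1) and -1.0003 for library totals, called each time. The gene gpd1 was at -1.05, -0.28 and -0.55 on the same scales, also called each time. Phosphoglycerate kinase (pgk1) was at -0.61 with TMM, at -0.11 with library totals (edgeR, adjusted p = 0.206) and at 0.16 on log2(TPM + 1) (limma, adjusted p = 0.0909). In the pentose phosphate pathway zwf1, the glucose-6-phosphate dehydrogenase gene and a source of NADPH, rose. It had 307, 312 and 279 TPM in Δace1 and 137, 153 and 159.6 TPM in QM6a, without overlap. The size of the rise depended on the scaling, with a log2 change of 0.23 with TMM (SE 0.06, edgeR adjusted p = 0.00324), 0.996 on log2(TPM + 1) and 0.73 for library totals. With TMM zwf1 lay at percentile 57.2 of all log2 changes, near the middle.

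**Figure D5:**
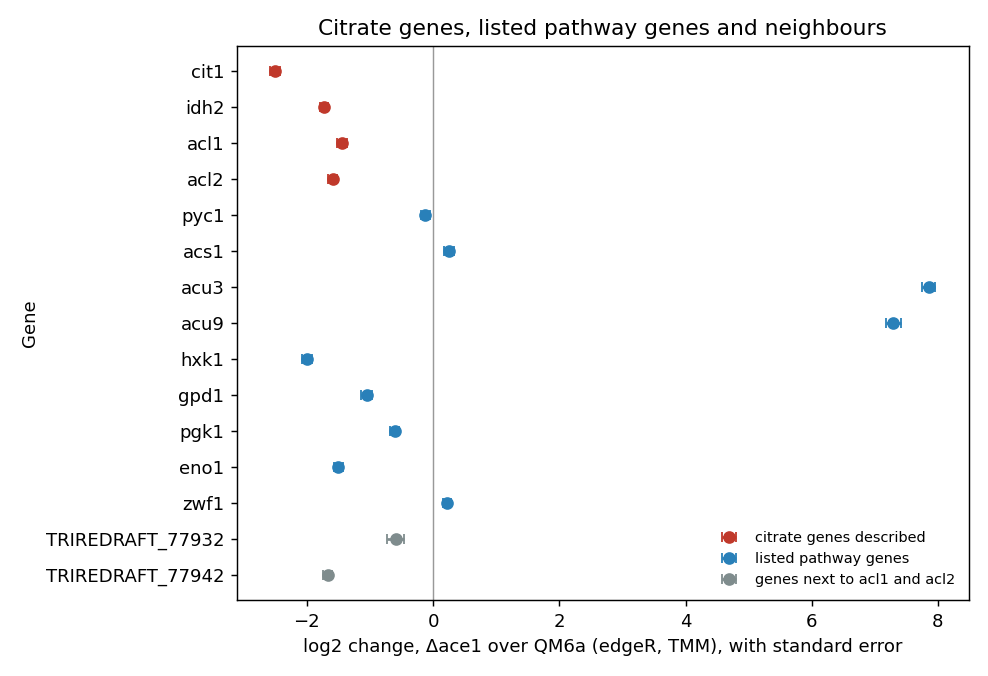
Log2 change, Δace1 over QM6a, with its standard error (edgeR, TMM scaling), for the 4 citrate genes (red), the 9 tested pathway genes (blue) and the genes next to acl1 and acl2 (grey). The citrate genes lie between -2.50 and -1.44, with cit1 below both hxk1 (-1.99) and eno1 (-1.499). The genes acu3 and acu9 lie at 7.85 and 7.29.

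The lyase genes are neighbours in the reference annotation, with 0 genes annotated between them. The gene beyond acl2, TRIREDRAFT_77942, had 76.3, 77.2 and 85.4 TPM in Δace1 and 145, 146 and 154 TPM in QM6a, and fell by 1.67 on the log2 scale with TMM (SE 0.07, edgeR adjusted p = 1.52e-12), and by 1.17 for library totals and 0.89 on log2(TPM + 1). The gene beyond acl1, TRIREDRAFT_77932, had 115, 81.3 and 90.5 TPM in Δace1 and 88.2, 85.2 and 79.4 TPM in QM6a, with overlap. It fell by 0.59 with TMM (SE 0.14, edgeR adjusted p = 0.000845) and was not called on log2(TPM + 1), at 0.17, or with library totals, at -0.09. The reference names no product for either, and the strand of the genes is not given there.

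The genes most like each citrate gene were found by the distance between log2 CPM profiles over the 6 libraries, each centred on its own mean, among 6287 other genes with a mean of at least 10 TPM. The nearest genes to cit1 were TRIREDRAFT_81570 and TRIREDRAFT_3641 (0.12 each), and among genes with a symbol rps15, a ribosomal protein gene, lay at 0.17. For idh2 they were TRIREDRAFT_81001 (0.07) and TRIREDRAFT_43615 (0.09), then erf1 (0.17), a translation release factor in Saccharomyces cerevisiae, and atp2 (0.24). The strain difference dominates these distances, since within-strain deviations are small.

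For acl1 the nearest were TRIREDRAFT_64110 (0.08) and TRIREDRAFT_120195 (0.09), then eno1 (0.13) and atp1 (0.16). For acl2 they were TRIREDRAFT_66895 (0.05) and TRIREDRAFT_55790 (0.10), then atp2 (0.14) and eno1 (0.27). In Saccharomyces cerevisiae atp1 and atp2 name the alpha and beta subunits of the mitochondrial ATP synthase. The lyase genes were 0.37 apart, and 255 of the 6287 genes lay nearer to acl1 than acl2 did. The closest pair of the 4 was idh2 and acl2, at 0.21, and cit1 lay 0.96 or more from each other member.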

How the data were processed

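Messenger RNA of 6 libraries was quantified by the authors with kallisto 0.43.1; FastQC 0.11.5 and DESeq2 1.14.1 are also named, per the submitters' processing notes. The transcripts and the genome build behind the counts were not given in the sources used here. Per the file headers, the authors' kallisto step gave an estimated count, a TPM value, a length and an effective length for each transcript and library. The deposited series table holds a normalized signal per gene, a count divided by 1 factor per library. Multiplying back gave whole reads (within 0.05) for 92.5% to 96.1% of values, and edgeR on them called 6274 genes. The tables were joined by counts in all 6 libraries: 8526 of 9113 genes had a single partner, the 4 citrate genes among them. The other 587 had at most 11 counts in total. Of the lengths 99.1% are multiples of 3, so they are coding lengths.

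Symbols came from the RefSeq table of assembly v2.0, which held 9109 genes, 234 with a symbol. It gives no products, so the planned search by product words was not run. Estimated counts were rounded and tested with edgeR 4.0.16 in R 4.3.3 (quasi-likelihood, TMM, filterByExpr, robust, two-sided, Benjamini-Hochberg threshold 0.05). Each standard error was obtained as the fitted log2 change over the square root of its F statistic. Alternatives used DESeq2 1.42.0, limma 3.58.1 and other scalings and filters. The fits were tested on simulated data. The members and lists were chosen with earlier results of these data known. The named genes are the 4 members, ace1, the matched pathway genes, the annotated neighbours of the lyase genes, and, per member, the 2 nearest genes and the 2 nearest with a symbol, of which 1 is not reported here. TPM values hold no depth.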

Additional observations from a re-analysis of the deposited data

How the results depend on the processing

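The log2 changes of cit1, idh2, acl1 and acl2 kept their sign under the 17 alternatives run and moved beyond the spread between replicates only where the whole table was shifted. They were -2.34, -1.56, -1.29 and -1.43 with upper-quartile scaling, -2.001, -1.22, -0.94 and -1.09 for library totals, -1.72, -0.94, -0.67 and -0.82 on log2(TPM + 1), and -1.73, -0.95, -0.67 and -0.82 on log2(TPM + 0.1). Leaving out 1 library gave -2.54 to -2.44 for cit1, -1.76 to -1.68 for idh2, -1.49 to -1.39 for acl1 and -1.65 to -1.55 for acl2. Without length correction the acl1 to acl2 ratio was 1.45 in Δace1 and 1.31 in QM6a. For the ratio in TPM, leaving out 1 library gave 1.02 to 1.15 in Δace1 and 0.929 to 1.01 in QM6a. The number of pathway genes called was 8 or 9 throughout. The change of pyc1 was 0.037 with upper-quartile scaling, 0.38 for library totals, and 0.65 on both TPM scales, and DESeq2 and limma on log2(normalized count + 1) called it lower (-0.14 each). On both TPM scales pgk1 was at 0.16 and TRIREDRAFT_77932 at 0.17.

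With the replicate block 6223 genes were called, against 6274, and the 4 changes were -2.50, -1.72, -1.44 and -1.59. Same-numbered libraries had correlations of their deviations of -0.0078, 0.11 and -0.061, so the numbers were not taken to pair them, and 1 of 6 libraries correlated best with its own number. Leaving out 1 library gave 6039 to 6265 calls. Each citrate gene had 833 or more counts in every library. Counting error was not smaller than every difference between replicates, and 3 libraries per strain also limit the precision.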
